A study of Mus musculus with 6 samples.

Results

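The AP-1 family of transcription factors was followed through RNA-seq libraries of sorted mouse splenic CD8 T cells. Its members here were 9 genes taken by symbol, Fos, Fosb, Fosl2, Jun, Junb, Jund, Maff, Atf3 and Batf, out of 17744 genes in the authors' table. All 9 were present and had an FPKM (fragments counted per unit of gene length and of library size) of at least 1 in 3 libraries, the minimum for entering the test across genes. The members were selected on the difference of their FPKM values between the groups of these same libraries. Their levels in that comparison are therefore a description and carry no test. Cells positive for CD45, CD3 and CD8a had been sorted from spleen for 3 control samples, whose genotype is labelled wt, and 3 samples labelled fus irradiation as both genotype and treatment, here called the ultrasound group. Focused ultrasound concentrates sound waves on a tissue, and the title of the series names the spleen as that tissue. No strain, age, sex, ultrasound dose, interval after treatment or batch is labelled, and no label says whether animals were pooled. P-values therefore measure only the spread between these samples, which may be technical in part.

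AP-1 is a dimer of basic leucine zipper (bZIP) proteins that binds a short palindrome in DNA. FOS proteins dimerize with JUN proteins, JUN proteins also pair among themselves, and ATF, BATF and small MAF proteins are relatives with the same fold. In T cells most of these genes are immediate early genes: they are transcribed within minutes of stimulation through MAP kinases and calcium, their mRNAs are short-lived, and their proteins cooperate with NFAT at cytokine genes. Bulk RNA cannot tell fewer cells of a type from less RNA per cell.

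The libraries held 35024080 to 38113103 recovered reads, and ultrasound 2 and 3 stood apart from the other 4. On principal component 1, with 70.8% of the variance, the controls lay between -28.60 and -15.81, ultrasound 1 at -0.53, and ultrasound 2 and 3 at 33.22 and 39.71. The share of mitochondrial reads was 2.05% to 2.70% for controls, 2.19% for ultrasound 1, 0.954% for ultrasound 2 and 0.937% for ultrasound 3. The levels of the 9 AP-1 genes are therefore given per library below, so that ultrasound 1 can be read alone. Many other genes and some marker lists are given as group means, changes or ranges, from which ultrasound 1 cannot be read alone. Across the 10655 genes that entered limma, 698 rose and 166 fell in the ultrasound group at an adjusted p of 0.05. Median-of-ratios size factors changed this split to 281 and 187, and moved the median log2 change over all genes from 0.09 to -0.02. Under these size factors limma passed 4 of the 9 AP-1 genes as lower, against 7 without them. The part of scaling in the AP-1 differences was not tested.

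Junb, Fos, Jun, Jund and Fosb were among the abundant transcripts of the control cells, at rank 61 to 207 by FPKM. Atf3, Batf, Maff and Fosl2 held rank 658 to 3070 there. Together the 9 genes made up a smaller part of the ultrasound libraries. Summed over the 9 genes, the level per length was 2662, 3001 and 3455 FPKM in control 1, 2 and 3. It was 1707 FPKM in ultrasound 1, 668 in ultrasound 2 and 1069 in ultrasound 3. The groups did not overlap, and ultrasound 1 lay between the controls and the other ultrasound libraries. As reads, the 9 genes took 0.650% to 0.839% of all recovered reads in the controls, 0.403% in ultrasound 1, 0.151% in ultrasound 2 and 0.244% in ultrasound 3.

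**Figure D1:**
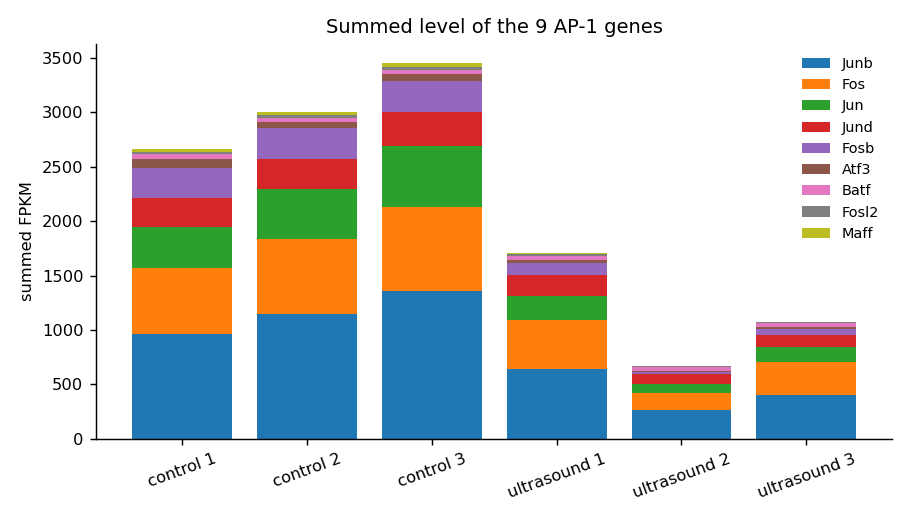
Summed FPKM of the 9 AP-1 genes in each of the 6 libraries, with each bar divided by gene. The controls reach 2662 to 3455 FPKM and the ultrasound libraries 668 to 1707, with Junb and Fos the widest bands in every library.

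Of the 9 genes, 8 lay below all controls in all 3 ultrasound libraries, as did 8.96% of all genes tested. Batf was the exception. By limma, 7 of the 9 passed an adjusted p of 0.05 and were lower, beside 1.56% of all genes tested; Fos and Batf did not pass. In the authors' deposited table, 7 of the 9 were lower with q under 0.05, beside 4.98% of its genes, and there Maff (q = 0.114) and Batf (q = 0.224) did not pass. Because the members were proposed from this contrast, nothing is read from these counts. The median log2 change of the 9 was -1.73, on log2(FPKM + 1), against 0.09 over all genes tested. The count changed whichever library was left out, and the reason was not tested. Limma passed 0 members without control 1, control 2, control 3, ultrasound 2 or ultrasound 3, with 8 at an unadjusted p under 0.05 in each of these fits. Over all genes it passed 571 without control 1 and 0 without control 2, control 3, ultrasound 2 or ultrasound 3. Without ultrasound 1 it passed 8 members, all lower, beside 5628 of all genes, of which 2084 were lower.

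**Figure D2:**
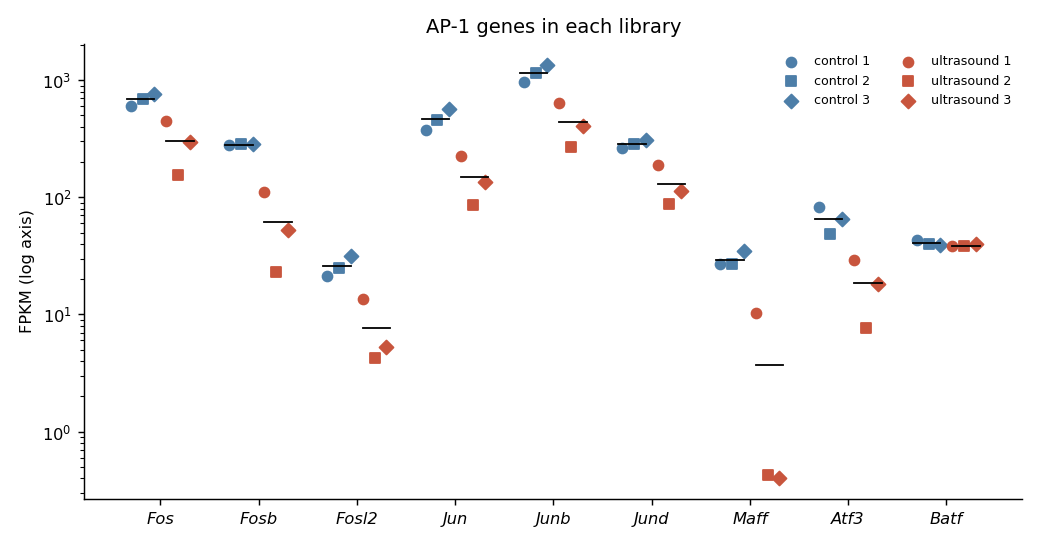
FPKM (log axis) of each AP-1 gene in the 3 control (blue) and 3 ultrasound (red) libraries, with a black line at each group mean. For every gene but Batf the red points lie below all blue points, and Maff is at 0.422 and 0.399 FPKM in ultrasound 2 and 3.

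Fos (NCBI Gene 14281; chromosome 12, 85473890 to 85477274 of GRCm38, the assembly also called mm10) encodes the founding FOS subunit. Its level was 604, 692 and 769 FPKM in control 1, 2 and 3, and 448, 154 and 299.5 in ultrasound 1, 2 and 3. The mean was 688 ± 82.7 FPKM in controls and 300.5 ± 147 in ultrasound libraries (SD, n = 3 each). All ultrasound libraries were lower than all controls, yet ultrasound 1 lay 1.35-fold below the lowest control and ultrasound 2 was 4.47-fold below the control mean. Among all genes listed, Fos held rank 92 to 107 by FPKM in the controls and rank 123, 322 and 185 in ultrasound 1, 2 and 3.

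Fosb (NCBI Gene 14282; chromosome 7, 19302696 to 19310118), a FOS subunit known for its induction by repeated stimulation in neurons, had the tightest controls of the 9 genes. Its FPKM was 278, 285 and 284 in control 1, 2 and 3, with the highest 1.03-fold above the lowest. In ultrasound 1, 2 and 3 it was 110.2, 22.9 and 52.4 FPKM, a mean of 61.8 ± 44.4 against 282 ± 4.08 in controls (SD, n = 3 each). Every ultrasound library was thus 2.52-fold or more below the lowest control, and ultrasound 2 was 12.4-fold below the control mean. The ratio of Fosb to Fos, both per length, was 0.370 to 0.460 in controls and 0.246, 0.148 and 0.175 in ultrasound 1, 2 and 3, so Fosb was lower relative to Fos in each ultrasound library.

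Fosl2 (NCBI Gene 14284; chromosome 5, 32136472 to 32157840), which encodes the FRA-2 subunit, was the least abundant of the 3 FOS genes among the 9 members. It had 21.5, 25.0 and 31.8 FPKM in control 1, 2 and 3 and 13.6, 4.27 and 5.22 in ultrasound 1, 2 and 3. Ultrasound 2 and 3 were close to each other here, at 6.11-fold and 5.00-fold below the control mean, while ultrasound 1 was 1.91-fold below it.

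Junb (NCBI Gene 16477; chromosome 8, 84976909 to 84978748), a JUN subunit with strong roles in T cell effector differentiation, was the most abundant AP-1 gene in all 6 libraries. Its level was 966, 1143 and 1357 FPKM in control 1, 2 and 3 and 644, 268 and 404 in ultrasound 1, 2 and 3. The mean was 1155 ± 196 FPKM in controls and 438 ± 191 in ultrasound libraries (SD, n = 3 each). Its rank by FPKM went from 61 to 79 in the controls to 100, 200 and 136 in ultrasound 1, 2 and 3.

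Jun (NCBI Gene 16476; chromosome 4, 95049036 to 95052222), the founding JUN subunit and a target of JNK kinases, had 379, 457 and 566 FPKM in control 1, 2 and 3. It had 224, 86.3 and 136 FPKM in ultrasound 1, 2 and 3. The ultrasound libraries were 2.08-fold, 5.41-fold and 3.43-fold below the control mean, all outside the range of the controls. Jund (NCBI Gene 16478; chromosome 8, 70697739 to 70700616), the JUN gene usually expressed without stimulation, had 262, 283 and 307 FPKM in control 1, 2 and 3. It had 189.6, 87.0 and 114 FPKM in ultrasound 1, 2 and 3, which is 1.5-fold, 3.27-fold and 2.50-fold below the control mean. Of the 8 genes without overlap, Jund lay nearest to its control mean in ultrasound 1 and 2, and Fos did so in ultrasound 3. The ratio of Jun to Jund, per length, was 1.44 to 1.84 in controls and 1.18, 0.993 and 1.20 in ultrasound 1, 2 and 3.

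Maff (NCBI Gene 17133; chromosome 15, 79346621 to 79359078) encodes a small MAF protein, which lacks a transactivation domain and acts through its dimer partners. It had 26.7, 26.8 and 34.5 FPKM in control 1, 2 and 3, 10.2 in ultrasound 1, and 0.422 and 0.399 in ultrasound 2 and 3. Ultrasound 1 was 2.88-fold and ultrasound 2 and 3 were 69.5-fold and 73.5-fold below the control mean. These last values rest on 52 reads in ultrasound 2 (95% exact Poisson interval 38.8 to 68.2) and 50 in ultrasound 3 (37.1 to 65.9), against 3086 to 3998 reads in the controls and 1180 in ultrasound 1. The intervals cover counting error only. On log2(FPKM + 1) the change was -3.42, which understates the ratio of so low a gene.

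Atf3 (NCBI Gene 11910; chromosome 1, 191170296 to 191183333), a stress-induced bZIP gene that often represses its targets, varied most among the controls. Its FPKM was 83.2, 49.0 and 65.4 in control 1, 2 and 3, the highest 1.70-fold above the lowest. In ultrasound 1, 2 and 3 it was 29.4, 7.73 and 18.1 FPKM, below every control, with a mean of 18.4 ± 10.8 against 65.8 ± 17.1 (SD, n = 3 each).

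Batf (NCBI Gene 53314; chromosome 12, 85686720 to 85709087), which pairs with JUN proteins and IRF4 and is needed for effector CD8 T cells, did not share the pattern. It had 42.9, 40.2 and 39.0 FPKM in control 1, 2 and 3 and 38.2, 38.1 and 39.7 in ultrasound 1, 2 and 3. The groups overlapped, and the means were 40.7 ± 2.02 and 38.7 ± 0.918 (SD, n = 3 each). With the other members lower, Batf made up 1.13% to 1.61% of the summed AP-1 FPKM in controls and 2.24%, 5.70% and 3.72% in ultrasound 1, 2 and 3. The ratio of Batf to Jun was 0.0689 to 0.113 in controls and 0.171, 0.441 and 0.292 in ultrasound 1, 2 and 3.

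Junb held much the same share of the pool in all libraries, while the share of Fos lay above the controls in ultrasound 1 and 3. Junb held 36.3% to 39.3% of the summed AP-1 FPKM in controls and 37.7% to 40.0% in ultrasound libraries, and Fos 22.3% to 23.1% and 23.1% to 28.0%. Fosb held 8.23% to 10.4% in controls and 3.42% to 6.45% in ultrasound libraries, and Maff 0.894% to 1.0% and 0.0373% to 0.598%, with no overlap in either case. The shares of Jun and Fosl2 were also lower, and those of Jund and Batf higher, in every ultrasound library than in any control. Jun held 14.2% to 16.4% in controls and 12.7% to 13.1% in ultrasound libraries, and Jund 8.90% to 9.86% and 10.6% to 13.0%. For Atf3 the shares overlapped. The 3 JUN genes together had 1.78 to 2.06 times the FPKM of the 3 FOS genes in controls, and 1.85, 2.43 and 1.83 times in ultrasound 1, 2 and 3, where only ultrasound 2 lay outside the controls.

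The ultrasound libraries were not alike. For 8 of the 9 genes ultrasound 1 lay between the controls and both other ultrasound libraries, as 6.98% of all genes tested did, and for 8 of 9 ultrasound 3 was above ultrasound 2, as for 4436 of the 10655 genes tested. The ratio of ultrasound 3 to ultrasound 2 was 2.34 for Atf3, 2.29 for Fosb, 1.94 for Fos, 1.58 for Jun, 1.51 for Junb, 1.31 for Jund and 1.22 for Fosl2. It was 0.946 for Maff and 1.04 for Batf. Over all genes tested these libraries differed by a median of 1.07-fold and by 1.24-fold at the 90th percentile, on the log2(FPKM + 1) scale. Atf3, Fosb, Fos, Jun, Junb and Jund lay beyond that percentile. On the log2 FPKM scale, ultrasound 1 covered 24.6% (Maff) to 49.8% (Jun) of the distance between the controls and the mean of ultrasound 2 and 3 for the 8 lower genes.

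**Figure D3:**
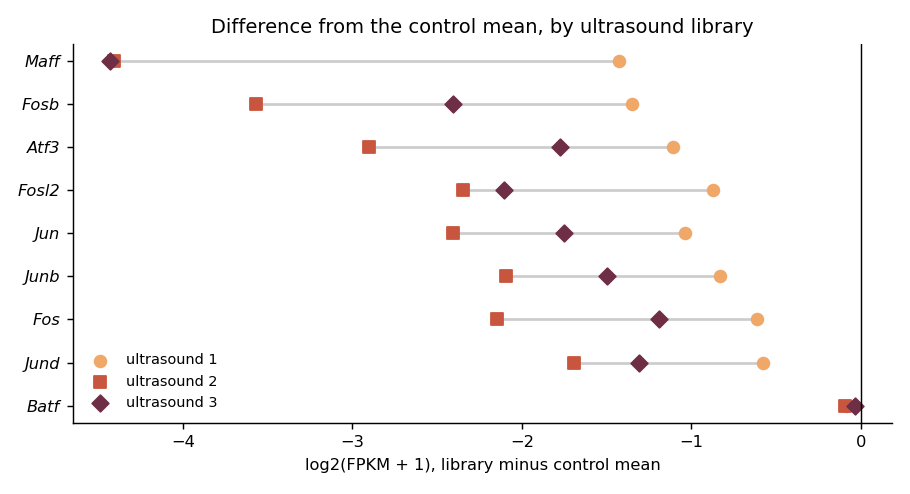
Difference of each ultrasound library from the control mean on log2(FPKM + 1), for each AP-1 gene. Ultrasound 1 is nearest to 0 for 8 genes, ultrasound 2 and 3 coincide for Maff at -4.41 and -4.43, and all 3 libraries lie near 0 for Batf.

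Promoter windows from RefSeq on GRCm38.p6, each from 250 bases before to 50 bases after an annotated start, were matched for all 9 genes, in 11 windows. They were searched on both strands for the CRE (TGACGTCA, the site of CREB and ATF proteins), its core (TGACG), the TRE (TGAGTCA, the AP-1 site itself), the TATA box (TATAAA) and, by name, the CArG box of SRF. The GC box (GGGCGG) and the CCAAT box (CCAAT) were searched as well. A full CRE holds the core on both strands. The core was present in 7 of the 11 windows, against 20.8% of 32817 windows of this length. These belong to 6 of the 9 genes, Atf3, Batf, Fos, Fosb, Junb and Maff, the last with 2. GC box letters were in 8 windows, against 35.6%, and CCAAT letters in 3, against 37.4%. The windows held 46.7% (Jund) to 68.3% (Fosb) G and C, and the part of base content in these shares was not tested. The full CRE was present in 1 window, of Maff, against 1.79% of windows. TATAAA was present in 2, against 13.6%, upstream of the start at -33 to -28 in Fos and at 1 to 6, on and after the start, in Junb. TRE and CArG letters were in none of the 11 windows, against 5.20% and 1.63% of all windows. Sites further than 250 bases before a start were outside the search, so a missing match does not mean that the promoter lacks the site. Batf, whose groups overlapped, holds the core too. Shown here are the windows of Fos as the best-studied promoter of the family, of Fosb and Maff as the genes furthest below the controls, and of Batf as the gene whose groups overlapped, 5′ to 3′ on the gene's strand with core, CRE and TATA letters in capitals.
Fos (chr12:85473640-85473939, + strand): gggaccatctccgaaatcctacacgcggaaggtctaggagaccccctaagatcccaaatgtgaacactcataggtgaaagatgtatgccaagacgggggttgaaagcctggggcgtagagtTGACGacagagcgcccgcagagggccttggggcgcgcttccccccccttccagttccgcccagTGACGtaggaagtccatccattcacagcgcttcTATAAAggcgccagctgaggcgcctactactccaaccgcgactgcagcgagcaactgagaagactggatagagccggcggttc
Fosb (chr7:19309996-19310295, - strand): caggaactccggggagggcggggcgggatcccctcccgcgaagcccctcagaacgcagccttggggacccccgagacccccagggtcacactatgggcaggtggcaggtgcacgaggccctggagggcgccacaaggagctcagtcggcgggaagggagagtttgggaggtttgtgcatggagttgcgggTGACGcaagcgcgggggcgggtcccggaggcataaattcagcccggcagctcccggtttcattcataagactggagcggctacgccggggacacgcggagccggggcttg
Maff (chr15:79347270-79347569, + strand, the window with the CRE): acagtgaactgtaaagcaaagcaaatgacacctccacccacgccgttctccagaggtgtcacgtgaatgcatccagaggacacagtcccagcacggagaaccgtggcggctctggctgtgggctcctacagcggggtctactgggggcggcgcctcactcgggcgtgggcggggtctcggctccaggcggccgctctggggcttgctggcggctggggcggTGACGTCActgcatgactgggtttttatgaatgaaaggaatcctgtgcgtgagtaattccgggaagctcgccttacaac
Batf (chr12:85686470-85686769, + strand): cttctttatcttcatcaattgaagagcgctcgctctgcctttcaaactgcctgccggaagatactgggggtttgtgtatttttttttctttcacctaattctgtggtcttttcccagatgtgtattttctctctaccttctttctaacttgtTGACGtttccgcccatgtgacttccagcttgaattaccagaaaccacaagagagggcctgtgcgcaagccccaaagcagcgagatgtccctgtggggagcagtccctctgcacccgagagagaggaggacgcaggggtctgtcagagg
Counted from the start, with -1 the base before it, the cores lie at -129 to -125 and -66 to -62 in Fos, -60 to -56 in Fosb and -98 to -94 in Batf, and the CRE of Maff at -29 to -22. A match of letters is a description and not a measured site.

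The genes nearest to each AP-1 gene in pattern were found by the root mean square difference of log2(FPKM + 1), relative to the control mean, over the 6 libraries. Jun was nearest to Egr1 (difference 0.07), a zinc finger immediate early gene, and Jund to Nfkbia (0.06), the NF-kB inhibitor. Fosl2 was nearest to Gadd45b (0.06) and Csrnp1 (0.10), Junb to Ppp1r15a (0.11) and Dusp2 (0.12), and Fos to Dusp1 (0.16) and Per1 (0.17). Gadd45b encodes a growth arrest and stress protein, Ppp1r15a a subunit that reverses translational arrest, Dusp1 and Dusp2 phosphatases of MAP kinases, and Per1 a clock protein. Sik1 and Ifng came next for Jun, Lars2 for Fosl2, Ifng for Junb, Ppp1r15a for Fos, and Gadd45a and Pim3 for Jund. The remaining members had looser neighbours. Fosb was nearest to Cd69, Irs2 and Tnfaip3 (0.31 to 0.32), Atf3 to Egr1, Rgs1 and Klf6 (0.35 to 0.39), and Maff to Nr4a2, Tnfaip3 and Cd69 (0.62 to 0.74). Batf was nearest to Nudc, Mif and Rcc2 (0.03 to 0.04), genes that differed from their control means by at most 0.11 on this scale in any ultrasound library. Some members, left out of this search, lay nearer than a gene named here. Fosl2 lay nearer to Jun (0.162) than Ifng did (0.182), and Junb nearer to Fos (0.161) than Per1 did (0.171). Likewise, Jun lay nearer to Atf3 (0.386) than Rgs1 did (0.391).

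Among 21 other bZIP genes, listed from textbook knowledge with earlier results of these data known, 19 were tested; 3 rose and 1 fell by limma, and the median log2 change was 0.12. Over all genes tested 6.55% rose and 1.56% fell. Mafk, a small MAF gene like Maff, had 21.6 ± 1.96 FPKM in controls and fell to 8.08 ± 4.37 with ultrasound (SD, n = 3 each; log2 change -1.41, SE 0.30, limma adjusted p = 0.0414). Mafg, the other small MAF gene, had 4.35 ± 0.121 and 4.92 ± 1.32 FPKM with overlapping groups (limma adjusted p = 0.616). Among the CNC and BACH genes, whose proteins pair with small MAF proteins, Nfe2, Nfe2l2 and Nfe2l1 rose, and Bach1 and Bach2 did not pass (limma adjusted p = 0.251 and 0.0874). Nfe2, known from megakaryocytes, erythroid cells and myeloid cells, rose from 1.08 ± 0.416 to 7.12 ± 2.74 FPKM (SD with n = 3 each; limma adjusted p = 0.0297). Nfe2l2, which encodes the oxidative stress regulator NRF2, rose from 25.8 ± 1.5 to 37.7 ± 4.43 FPKM (limma adjusted p = 0.0389), and Nfe2l1 from 17.3 ± 0.358 to 22.3 ± 0.634 (limma adjusted p = 0.0449). The most abundant genes of the list that did not pass were Atf4, with 252 ± 26.7 and 173 ± 22.2 FPKM (limma adjusted p = 0.0512), and Atf1, with 20.9 ± 1.71 and 19.8 ± 2.57 (limma adjusted p = 0.657).

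Of 6 partner genes outside the bZIP family, 1 fell and none rose, where 1.56% of all genes tested fell and 6.55% rose. Irf4, which binds composite sites with BATF and JUN, fell from 25.3 ± 2.26 to 15.2 ± 1.15 FPKM (SD, n = 3 each; log2 change -0.70, SE 0.10, limma adjusted p = 0.0304), and all 3 ultrasound libraries lay below the controls. Ets1 and Irf8 were the most abundant that did not pass, at a limma adjusted p of 0.381 and 0.160. In ultrasound 1, 2 and 3 Irf8 had 27.9, 70.2 and 77.2 FPKM against 23.3 to 36.9 in controls.

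The mRNAs of kinases and factors upstream of AP-1 mostly did not pass the test. All 25 on the list were tested, 1 rose and none fell, with a median log2 change of 0.08 against 0.09 over all genes tested, of which 6.55% rose. Mapk3, which encodes ERK1, rose from 23.8 ± 1.10 to 47.4 ± 8.91 FPKM (SD, n = 3 each; log2 change 0.95, SE 0.14, limma adjusted p = 0.0304). Rasgrp1, the activator of RAS below the T cell receptor, did not pass (limma adjusted p = 0.0903). Srf and Elk1, the factors that act at the Fos serum response element, were at 19.0 to 20 and 4.80 to 5.93 FPKM in controls and 21.3 to 23.8 and 5.30 to 5.76 in ultrasound libraries.

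Known AP-1 target genes moved in both directions. Of 12 on the list, 8 were tested, 3 rose and 2 fell, and 3 did not pass, where 6.55% of all genes tested rose and 1.56% fell. Ifng, the effector cytokine, fell by 1.58 on the log2 scale (SE 0.24, limma adjusted p = 0.0304), and Cd69, the early activation receptor, fell by 2.48 (SE 0.54, limma adjusted p = 0.0442). Gzmb, a granule protease, rose by 0.98 (SE 0.17, limma adjusted p = 0.0311), Vim, an intermediate filament gene, by 0.72 (SE 0.13, limma adjusted p = 0.0311) and Cd44, an adhesion receptor, by 0.71 (SE 0.15, limma adjusted p = 0.0389). Plaur and Tnf did not pass (limma adjusted p = 0.0672 and 0.164). Tnf had 36.8 FPKM in ultrasound 1, within the 32.3 to 38.8 of the controls, and 14.4 and 17.3 in ultrasound 2 and 3.

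Immediate early genes outside the bZIP family were lower as well. Of 15 on the list, 10 fell and none rose, where 1.56% of all genes tested fell and 6.55% rose. The median log2 change was -1.20. All 15 lay below all controls in all 3 ultrasound libraries, beside 8.96% of all genes tested. Ultrasound 1 lay between the controls and the other ultrasound libraries for 14 of 15, beside 6.98% of all genes. For 13 of 15 ultrasound 3 was above ultrasound 2, as for 4436 of the 10655 genes tested. The 6 largest falls among those that passed were Nr4a2 (-2.80 on the log2 scale), Tnfaip3 (-2.56), Egr1 (-1.69), Dusp2 (-1.51), Nr4a3 (-1.40) and Ppp1r15a (-1.37), with limma adjusted p from 0.0297 to 0.0487. Zfp36, an mRNA decay factor, and Dusp1 did not pass (limma adjusted p = 0.0749 and 0.107). Like the members, these genes were listed with the earlier results known, so the counts are a description. For each of these lists, and over all genes, limma passed 0 genes without control 2, control 3, ultrasound 2 or ultrasound 3. In these fits 1 to 15 genes of a list had an unadjusted p under 0.05.

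**Figure D4:**
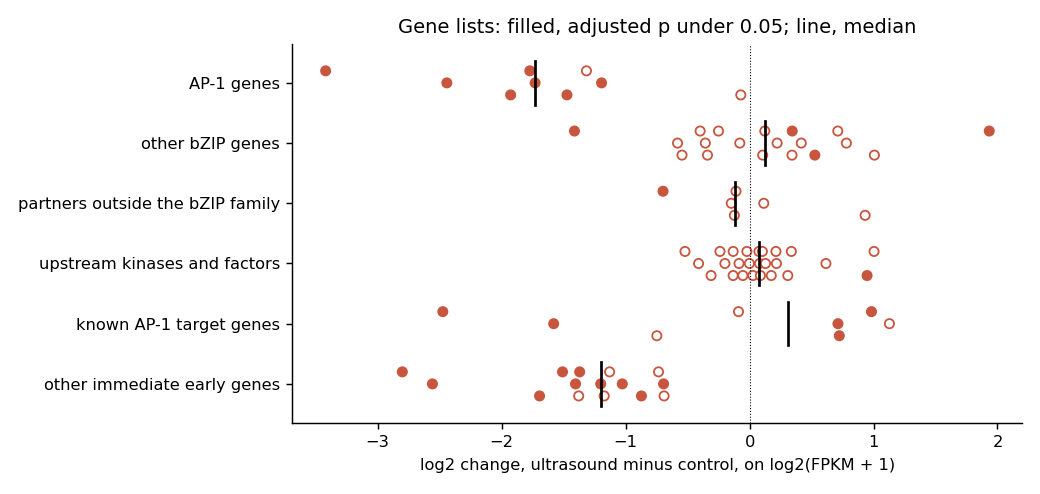
Log2 change (ultrasound minus control, on log2(FPKM + 1)) of each tested gene in 6 lists, filled where the limma adjusted p was under 0.05, with a black line at the list median. The AP-1 genes and the other immediate early genes lie to the left of 0, with medians of -1.73 and -1.20, and the other lists have medians between -0.12 and 0.31.

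Markers of the sorted cells and of other cells were set beside these values, since myeloid and B cells also express AP-1 genes. The 6 markers of the sorted cells, here called CD8 T cell markers, include Ptprc (CD45) and CD3 genes, which are not particular to CD8 T cells. Led by Cd8b1 and Ptprc, they summed to 2089 to 2181 FPKM in controls and 1808, 2112 and 1864 in ultrasound 1, 2 and 3, and none of them passed. Within this sum genes moved in opposite directions. Cd3e had 165, 310 and 288 FPKM in ultrasound 1, 2 and 3 against 191 to 209 in controls, and Ptprc 431, 330 and 300 against 417 to 485. The 8 monocyte and macrophage markers, led by Lyz2 and Ctss, summed to 489.5 to 1007 FPKM in controls and 2156, 2150.0 and 3574 in ultrasound 1, 2 and 3. Of these 8, 4 rose, beside 6.55% of all genes tested. The 7 neutrophil markers, led by S100a9 and S100a8, summed to 144 to 487 FPKM in controls and 1700.4, 517 and 541 in ultrasound 1, 2 and 3. Of these 7, 3 rose, beside 6.55% of all genes tested. S100a9 (886 FPKM) and S100a8 (725) made up most of the sum in ultrasound 1. The 4 that did not pass were highest in ultrasound 1. The 3 that rose were not: Csf3r had 24.8, 42.3 and 50.8 FPKM in ultrasound 1, 2 and 3, Mmp9 9.95, 11.9 and 15.0, and Cxcr2 7.90, 8.13 and 8.62. The 6 B cell markers, led by Cd79a and Cd79b, summed to 190.2 to 294 FPKM in controls and 144, 759 and 661 in ultrasound 1, 2 and 3. Klrb1c and Ncr1, the NK cell markers, summed to 1.27 to 2.12 FPKM in controls and 5.68 to 14.8 in ultrasound libraries. The 5 dendritic cell markers, led by Itgax and Flt3, summed to 17.0 to 36.0 and 21.3 to 59.0 FPKM. The 3 CD4 T cell markers, led by Cd4 and Zbtb7b, summed to 60.1 to 88.4 and 83.8 to 118 FPKM, and the 6 erythroid markers, led by Hbb-bs and Hba-a1, to 82.4 to 132 and 54.5 to 112. No marker was at 0 reads in any library. The part of these other cells in the differences of the AP-1 genes, of their target genes and of the other lists was not tested. From the lowest to the highest library, the summed level spanned 5.17-fold for the AP-1 genes, 1.21-fold for the CD8 T cell markers, 7.30-fold for monocyte and macrophage markers, 11.8-fold for neutrophil markers, 5.28-fold for B cell markers and 11.6-fold for NK cell markers. It spanned 1.96-fold for CD4 T cell markers, 3.47-fold for dendritic cell markers and 2.42-fold for erythroid markers.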

How the data were processed

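RNA-seq of sorted splenic CD8 T cells gave 6 libraries, grouped by the sample titles. The submitters' processing notes name HISAT2, HTSeq, DESeq2, R 3.2.0 and mm10, without saying which step each served. The deposited table holds FPKM values per library, per the file headers. It also holds, per the file headers, group means of normalized counts (a signal scaled by DESeq2 size factors), the fold change as a ratio, the log2 fold change, and p-values and q-values, all made by the authors. A shorter deposited table was not used here.

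Whole reads were recovered from the linear relation between the FPKM columns and the deposited group means. Of 46617 values of at most 300 reads, 100% lay within 0.05 of a whole number, and libraries held 35024080 to 38113103 reads.

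The table has no count column, so the test was limma 3.58.1 (trend, robust; R 4.3.3) on log2(FPKM + 1), fitted to the 10655 genes that reached an FPKM of 1 in 3 or more libraries. P-values were two-sided and adjusted by Benjamini-Hochberg over all genes tested, at 0.05. This scale understates changes of low genes. The fit and the recovery were tested on simulated data. Marker, pathway and member lists were chosen with earlier results of these data known. The text names all 9 members and their 3 nearest genes by pattern (outside the members, mean FPKM of at least 10, not mitochondrial). It also names the passing genes of each list up to 6, its 2 most abundant others, and the 2 most abundant of each marker list. Of these, 1 gene is not reported here. Genes named beyond this (Mafg, Bach1, Bach2, Srf, Elk1, Jdp2, Cd3e, Csf3r, Mmp9, Cxcr2) were picked after their values had been seen. The alternatives were the pseudocount, filter, scaling, voom on recovered reads, a replicate block, a term for ultrasound 2 and 3, the authors' values and each library left out. Tables and plots were made in Python 3.11.15 with pandas 2.3.3, numpy 2.4.6, matplotlib 3.10.9 and scipy 1.17.1. Gene positions and promoter windows are those of RefSeq on GRCm38.p6, the assembly that mm10 names.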

Additional observations from a re-analysis of the deposited data

How the results depend on the processing

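The 8 AP-1 genes below all controls kept their direction under 13 alternatives. These use the same libraries on which the members were selected, so a kept direction was close to fixed in advance and is no support. Batf stayed between -0.20 and -0.03 on the log2 scale, with a limma adjusted p of 0.165 to 0.844. Each of the 7 members that passed lost its call in 8 (as Fosb) to 10 (Maff) of the 13 alternatives. A pseudocount of 0.1 left the counts of calls within 1.5 times of those reported. Without a filter 0 of all genes and 0 of each list passed in limma, with 4216 genes and 8 AP-1 genes at an unadjusted p under 0.05. Median-of-ratios size factors gave 468 genes, 4 AP-1 genes, 2 other bZIP genes and 2 target genes. Voom on recovered reads gave 7 other bZIP genes. Adding a term for ultrasound 2 and 3, so that only ultrasound 1 is set against the controls, gave 150 genes, 1 AP-1 gene, 0 other bZIP genes, 0 partners, 2 target genes and 4 other immediate early genes, with 6 AP-1 genes, 10 other bZIP genes and 2 partners at an unadjusted p under 0.05. The authors' deposited table gave 2179 genes, 10 other bZIP genes and 3 upstream genes with q under 0.05. What causes these differences was not tested.

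Fits that each left out 1 library gave 0 to 5628 genes, 0 to 8 AP-1 genes, 0 to 12 other bZIP genes, 0 to 3 partners, 0 to 12 upstream genes, 0 to 7 target genes and 0 to 15 other immediate early genes. The highest counts came without ultrasound 1. Where all genes gave 0, 1913 to 2137 had an unadjusted p under 0.05, and without control 1 571 genes passed.

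Replicate numbers did not show pairing: libraries with the same number had deviations from their group means that correlated at -0.04, 0.05 and 0.06, and 2 of 6 libraries correlated best with their own number. With the replicate block 0 of all genes and 0 of each list passed in limma, with 3249 genes and 8 AP-1 genes at an unadjusted p under 0.05.

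Depth limits only Maff, with 52 and 50 reads in ultrasound 2 and 3; each other AP-1 gene had 573 reads or more in every library.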

Other observations

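Fos and Batf lie on chromosome 12 with another bZIP gene, Jdp2, as the only protein-coding gene that starts between them in RefSeq on GRCm38.p6. Jdp2, which encodes a repressor that pairs with JUN proteins, spans 85598656 to 85639878, 121 kb beyond the end of Fos and 46.8 kb before the start of Batf. These neighbours showed 3 different patterns. Fos lay below all controls in all ultrasound libraries, and the groups overlapped for Batf. Neither Fos nor Batf passed (limma adjusted p = 0.0688 and 0.547). Jdp2 had 2.09, 1.44 and 1.65 FPKM in control 1, 2 and 3 and 2.92, 2.84 and 4.84 in ultrasound 1, 2 and 3. It was higher in every ultrasound library, as were 2755 of the 10655 genes tested, and did not pass (limma adjusted p = 0.0672).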
